A study of Mus musculus with 35 samples.

Results

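The 8 genes described here are Lin28a, Lin28b, Trim71, Myc, Mycn, Mycl, Max and Mga, chosen by name from the 54446 genes of the table and all found in it. LIN28A and LIN28B are RNA-binding proteins that block maturation of the let-7 microRNAs. TRIM71 is an RNA-binding ubiquitin ligase whose own mRNA is a let-7 target. MYC, MYCN and MYCL are transcription factors of growth that bind E-box DNA only as partners of MAX, while MGA joins MAX in a repressive Polycomb complex, PRC1.6, known for keeping germline genes silent. Early pluripotent cells are known for high LIN28 and low mature let-7.

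RNA was sequenced from 27 libraries, 3 in each of 9 groups. The embryo groups, at 5 daily stages from E3.5 to E7.5, are labelled untreated wild-type CD-1 of either sex, with embryos pooled within a library. By the study's methods the parents were CD1 or Pdgfrα:H2B-GFP reporter mice, and embryos were not sexed. At E3.5 the sample was the inner cell mass, at E4.5 GFP-negative cells picked by hand after immunosurgery from the reporter line, in which GFP marks primitive endoderm, and from E5.5 dissected epiblast, the tissue that forms the body of the embryo. All 4 culture groups were wild-type mouse pluripotent cells. The study's methods name E14 as the wild-type ESC line, and LifeAct-GFP reporter and wild-type CD1 embryos as sources of embryo-derived lines. They do not say which of these embryos gave the Embryo3D libraries. EpiLC were embryonic stem cells (ESCs) held for 48 h in FGF2 and Activin A, and EpiSC were flat (2D) cultures made from ESCs with the same 2 factors. ESC3D and Embryo3D grew in 3D Matrigel with FGF2, Activin A, the Wnt pathway inhibitor XAV939 and the Bmp inhibitor Noggin, the first from ESCs and the second from E5.5 epiblast. Values are TPM, transcript abundances per transcript length scaled to a fixed total in each library, and so can be compared between genes. Embryo libraries were made from total RNA and culture libraries from poly-A RNA, so a difference between embryo and culture cannot be told apart from the kit, and these values stand side by side with no test.

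Each library summed to 1000000 TPM, from which the reads behind a value cannot be recovered, and the study's methods give the same intended depth for embryo and culture libraries. Epiblast markers were present in all groups, though not all 7 of them at E3.5. Their summed TPM was 362 to 1380 over the embryo libraries and 2376 to 3103 over the cultures. At E3.5 Pou5f1 averaged 579 TPM, and 5 of the 7 genes passed 1 TPM in at least 1 library. Fgf5 and Pou3f1 did not, at means of 0.0892 and 0.514 TPM. Markers of other tissues were present as well. The 7 trophoblast genes, mostly Krt8 and Krt18, summed to 2721 to 3173 TPM in the E3.5 and E4.5 libraries and to 328 to 841 later. At E5.5 Krt8 averaged 118 TPM and Krt18 219 TPM, beside 2.86 of Cdx2, 3.93 of Elf5 and 1.32 of Gata3. From E3.5 to E4.5 mean Cdx2 went from 161 to 23.7 TPM and Gata3 from 212 to 87.8 TPM. Elf5 went from 49.7 to 127 TPM and Tfap2c from 39.8 to 122 TPM. The 9 markers of primitive and visceral endoderm summed to 494 to 508 TPM at E3.5, 147 to 173 TPM at E4.5 and 686 to 1236 TPM from E5.5 to E7.5. From E3.5 to E4.5 the sample changed from inner cell mass to picked GFP-negative cells, so stage and sample cannot be told apart at that step. The hemoglobin genes Hba-x, Hbb-y and Hbb-bh1 were at 0 throughout. In bulk RNA, fewer cells of a type and less RNA per cell cannot be told apart. RNA was also fragmented at a lower temperature and for longer at E3.5 and E4.5 than later, so at the step from E4.5 to E5.5 stage and fragmentation cannot be told apart.

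The 9 mature sequences shown here, from the 5′ arms of let-7 family hairpins in the RefSeq table (GRCm38.p6), shared 1 seed. It spans bases 2 to 8 from the 5′ end, in capitals because these bases choose the targets. In all, 11 of the 1679 mature microRNAs listed held this seed. The sequences are written 5′ to 3′.
let-7a: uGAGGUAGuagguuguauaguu
let-7b: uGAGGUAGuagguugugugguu
let-7c: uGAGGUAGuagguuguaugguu
let-7d: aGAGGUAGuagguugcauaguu
let-7e: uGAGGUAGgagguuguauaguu
let-7f: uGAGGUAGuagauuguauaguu
let-7g: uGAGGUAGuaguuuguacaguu
let-7i: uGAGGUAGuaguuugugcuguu
miR-98: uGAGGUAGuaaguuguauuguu

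LIN28 proteins are known to hold the let-7 precursor through a GGAG motif in its terminal loop. GGAG stood between the 2 mature arms in 8 of 11 let-7 family hairpins, against 8.07% of the 644 mouse hairpins with both arms listed. The stretch between the arms is shown for Mirlet7f-2, which holds the motif (capitals), and for Mirlet7c-2, which does not.
Mirlet7f-2: uuagggucauaccccaucuuGGAGauaa
Mirlet7c-2: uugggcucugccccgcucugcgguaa

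The complement of the seed, CTACCTC, was searched on the transcribed strand of the longest annotated 3′ UTR of each gene (GENCODE vM21, GRCm38). It stood in 3 of the 8 genes, Lin28a, Lin28b and Trim71, and in none of Myc, Mycn, Mycl, Max and Mga. Over the 12465 expressed genes with a 3′ UTR, 10.5% held it. Lin28a had 2 matches in 2775 bases, and 2.41% of the 1619 UTRs within 20% of that length had as many. Lin28b had 4 in 4445 bases, as did 0.337% of 891 UTRs of like length. Trim71 had 4 in 5512 bases, as did 0.733% of 546 UTRs. A match is a run of letters and not a shown site. The matches are printed with their flanks, the capitals marking CTACCTC or, with an A after it, the longer CTACCTCA.
Lin28a, chr4:134005183-134005210, minus strand: cacagcctgttgaaCTACCTCAtttttg
Lin28a, chr4:134004545-134004572, minus strand: agatcgccacaaacCTACCTCActgtgt
Lin28b, chr10:45381016-45381043, minus strand: cccgggcgggaagtCTACCTCAtgcaag
Lin28b, chr10:45378642-45378669, minus strand: atacttgttagtaaCTACCTCtgagttt
Lin28b, chr10:45378470-45378497, minus strand: tttacagcacatggCTACCTCccagcta
Lin28b, chr10:45377054-45377081, minus strand: aatgatggcaccgaCTACCTCttcaatc
Trim71, chr9:114512466-114512493, minus strand: acattgcctaagtcCTACCTCAgcttaa
Trim71, chr9:114512370-114512397, minus strand: gtgataatttctatCTACCTCAactctt
Trim71, chr9:114509041-114509068, minus strand: ttagtatggattttCTACCTCAattttg
Trim71, chr9:114509015-114509042, minus strand: tggcaaaaagttgtCTACCTCAcgtcgg

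**Figure D1:**
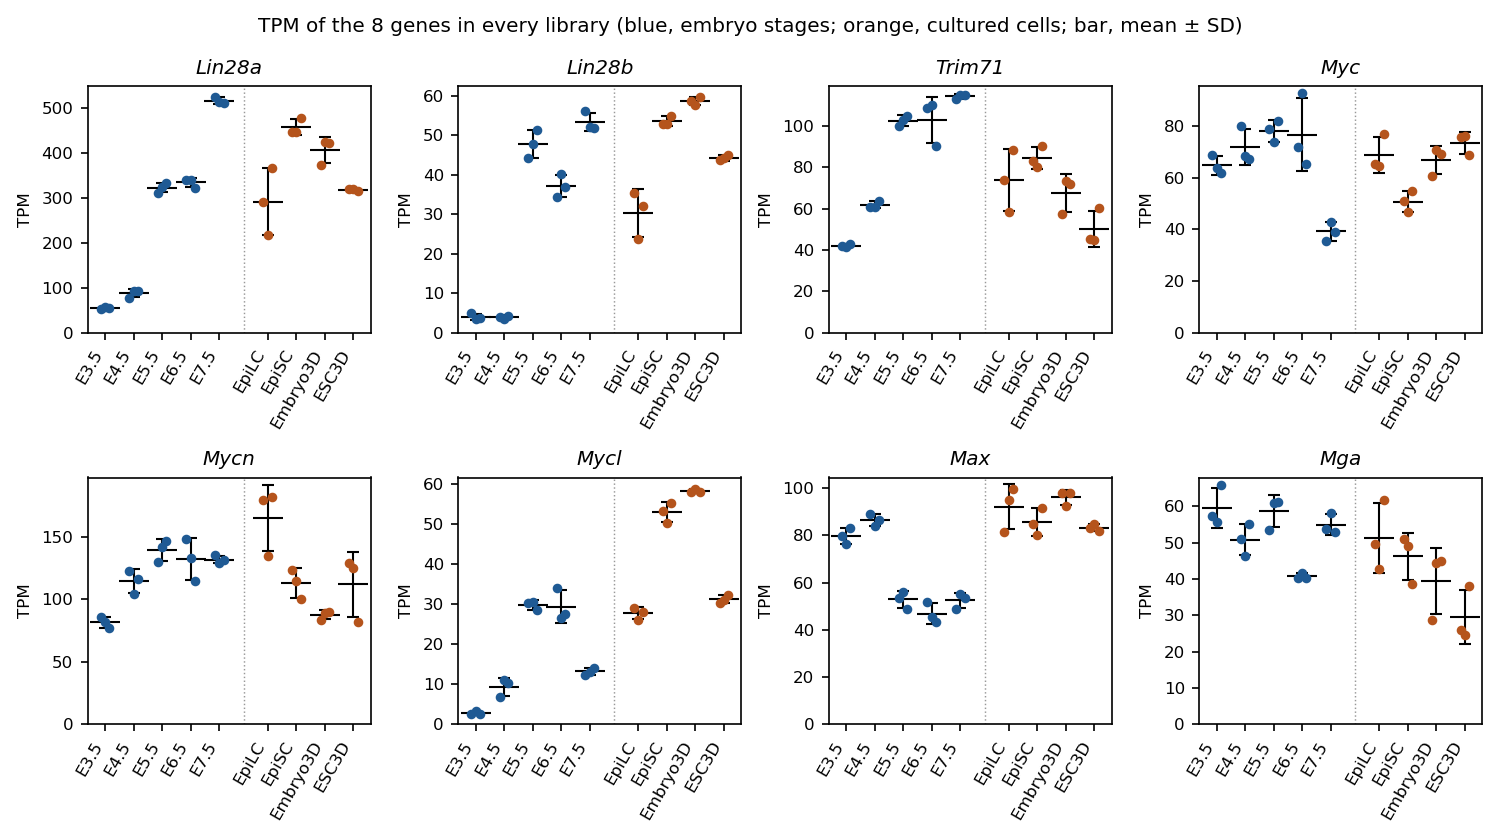
TPM of each of the 8 genes in every library, with embryo stages in blue, cultures in orange and black bars for the mean ± SD of 3 libraries. Each panel has its own TPM axis from 0. Lin28a and Lin28b stand low at E3.5 and E4.5 and high from E5.5, Mycl is highest at E5.5 and E6.5 among the embryo stages, and Max is lower from E5.5.

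Lin28a and Lin28b both rose between E4.5 and E5.5, and Lin28b rose more. Lin28a (ENSMUSG00000050966.9, chr4:134003330-134018841, minus strand, mm10) read 52.6, 57.9 and 55.3 TPM at E3.5 and 76.9, 93.7 and 92.5 TPM at E4.5. It then read 312, 325 and 333 TPM at E5.5, 341, 341 and 323 TPM at E6.5, and 526, 513 and 512 TPM at E7.5. No E5.5 library overlapped E4.5, and no E7.5 library overlapped E6.5, while E5.5 and E6.5 overlapped. Lin28b (ENSMUSG00000063804.8, chr10:45376620-45486395, minus strand) read 4.87, 3.497 and 3.66 TPM at E3.5 and 4.00, 3.44 and 4.32 TPM at E4.5. At E5.5 it read 44.1, 47.8 and 51.4 TPM, at E6.5 34.5, 40.1 and 36.9 TPM, and at E7.5 56.0, 52.1 and 51.7 TPM. The E3.5 and E4.5 libraries overlapped, and every later library stood above them. By mean level Lin28b moved from above 56.1% of autosomal protein-coding genes at E3.5 to above 88.6% at E7.5, and Lin28a from 90.1% to 99.1%.

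A gene is said here to have risen or fallen, or to be called, when limma on log2(TPM + 1) gave an adjusted p below 0.05 and a log2 fold change beyond 1 in size. From E4.5 to E5.5, 3 of the 8 genes were called higher, against 14.9% of the 11880 genes tested, and none lower, against 9.47%. The log2 fold change of Lin28b was 3.31 (SE 0.11, limma adjusted p = 2.09e-11) and that of Lin28a 1.87 (SE 0.08, limma adjusted p = 3.84e-10). Over all genes tested, the median in that step was 0.16 log2. The trophoblast markers, the mitochondrial share (17.2 to 18.6% of TPM at E4.5, 9.84 to 10.4% at E5.5) and the fragmentation changed at the same step. So did the summed endoderm markers, from 147 to 173 TPM at E4.5 to 686 to 741 TPM at E5.5. By the study's methods only the E4.5 samples went through antibody, serum and trypsin steps. The part of these differences in the values of the 8 genes was not tested. Between E6.5 and E7.5 the log2 fold change of Lin28a was 0.63 (SE 0.08, limma adjusted p = 4.67e-05) and that of Lin28b 0.51 (SE 0.11, limma adjusted p = 0.00196), both under the fold required. The median of all genes tested was 0.31 log2 in this later step, and the part of that shift in the Lin28 values was not tested.

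The ratio of Lin28a to Lin28b, in TPM, averaged 14.2 ± 3.00 (SD, n = 3) at E3.5, 22.6 ± 4.14 at E4.5, 6.78 ± 0.290 at E5.5, 9.04 ± 0.744 at E6.5 and 9.71 ± 0.280 at E7.5. It was lowest in all 3 E5.5 libraries (6.48 to 7.06). On the log2 scale, with 1 TPM added to each gene, stage held 92.1% of the variance of the ratio. An exact permutation test over all 1401400 groupings (one-sided on F) gave p = 2.57e-05, or 0.000154 adjusted over 6 such tests. At E3.5 and E4.5 the denominator was under 5 TPM.

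Trim71 (ENSMUSG00000079259.2, chr9:114507133-114564369, minus strand) climbed in smaller steps. It read 41.8, 41.5 and 42.8 TPM at E3.5, 61.0, 60.8 and 63.8 TPM at E4.5 and 99.8, 103 and 105 TPM at E5.5. None of these 3 stages overlapped. The log2 fold change was 0.55 (SE 0.08, limma adjusted p = 7.62e-05) from E3.5 to E4.5 and 0.72 (SE 0.08, limma adjusted p = 3.94e-06) from E4.5 to E5.5, neither past the fold required. E6.5 (90.3 to 110 TPM) overlapped E5.5, and E7.5 stood at 113 to 115 TPM.

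Of the 3 MYC-family transcription factors, Mycn was the most abundant and Mycl the least at every embryo stage by mean TPM. Mycn (ENSMUSG00000037169.15, chr12:12936093-12941914, minus strand) read 86.0, 82.1 and 77.1 TPM at E3.5, 123, 105 and 116 TPM at E4.5, 130, 142 and 147 TPM at E5.5, 148, 133 and 115 TPM at E6.5, and 135, 130 and 131 TPM at E7.5. The last 3 stages overlapped. Its log2 fold change of 0.48 from E3.5 to E4.5 (SE 0.10, limma adjusted p = 0.00115) was the largest of its steps. Myc (ENSMUSG00000022346.15, chr15:61985391-61990374, plus strand) read 68.9, 63.8 and 61.8 TPM at E3.5, 80.1, 68.5 and 67.4 TPM at E4.5, 79.1, 73.7 and 82.1 TPM at E5.5, and 72.0, 92.8 and 65.5 TPM at E6.5. All 4 of these stages overlapped with a neighbour in level. At E7.5 Myc read 35.6, 43.1 and 39.0 TPM, below every earlier library.

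Mycl (ENSMUSG00000028654.13, chr4:122995652-123002485, plus strand) changed most of the 3. It read 2.43, 3.15 and 2.59 TPM at E3.5, 6.66, 11.0 and 10.2 TPM at E4.5, 30.3, 30.6 and 28.4 TPM at E5.5, 34.0, 26.5 and 27.5 TPM at E6.5, and 12.3, 13.1 and 14.1 TPM at E7.5. Only E5.5 and E6.5 overlapped. From E3.5 to E4.5 Mycl was the 1 gene of the 8 called higher, against 5.88% of all genes, with none called lower against 11.9%. The log2 fold change was 1.44 (SE 0.15, limma adjusted p = 2.80e-06), and 1.61 from E4.5 to E5.5 (SE 0.15, limma adjusted p = 6.73e-07). Between E3.5 and E4.5 the sample also changed, from inner cell mass to picked GFP-negative cells. The summed endoderm markers went from 494 to 508 TPM down to 147 to 173 TPM, though Cubn of that list went from a mean of 48.7 to 91.9 TPM. Among the trophoblast markers, Cdx2 and Gata3 were lower at E4.5, and Elf5 and Tfap2c were higher. The part of these markers in the Mycl values was not tested.

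From E6.5 to E7.5 Mycl was again the 1 gene called, now lower, against 1.94% of genes called lower and 10.6% called higher. Its log2 fold change was -1.09 (SE 0.15, limma adjusted p = 5.67e-05) and that of Myc -0.94 (SE 0.12, limma adjusted p = 3.65e-05), just under the fold required. The median of all genes in this step was 0.31, and after scaling each library by its median ratio to the others, which brought that median to 0.01, Myc was called too at -1.27. Without E6.5 replicate 1 Mycl lost its call at -0.98, and without E6.5 replicate 3 or E7.5 replicate 2 Myc gained one at -1.04 and -1.01. At the same step the epiblast markers went from 1194 to 1293 TPM down to 362 to 390 TPM in sum, with Pou5f1 at a mean of 721 and 251 TPM and Utf1 at 191 and 8.56 TPM. Genes of other cell types stood at other levels too, with mean TPM at E6.5 and E7.5 of 29.8 and 96.5 for T, 9.73 and 82.0 for Hand1, 14.5 and 89.7 for Pdgfra and 5.27 and 56.7 for Cdx2. Mesp1 (57.3 and 14.1), Mixl1 (53.8 and 5.33), Lhx1 (44.0 and 7.06) and Lefty2 (14.3 and 0.601) were lower at E7.5, and the 6 streak and mesoderm genes summed to 190 to 236 and 202 to 211 TPM. Of the endoderm list, Gata4 (42.5 and 32.5), Afp (119 and 100), Apoa1 (560 and 470) and Amn (67.6 and 46.05) were lower at E7.5. Its 9 genes, Pdgfra among them, summed to 1120 to 1149 and 1210 to 1236 TPM. Of the trophoblast list, Elf5 (4.79 and 0.224) and Tfap2c (7.11 and 6.60) were lower. Its 7 genes, Cdx2 among them, summed to 396 to 442 and 802 to 841 TPM. The part of these changes in the Myc and Mycl values was not tested. No gene of the 8 was called from E5.5 to E6.5, where 0.715% of genes were called higher and 0.480% lower, and 2 of the 8, beside 26.6% of all genes, had an unadjusted limma p below 0.05.

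**Figure D2:**
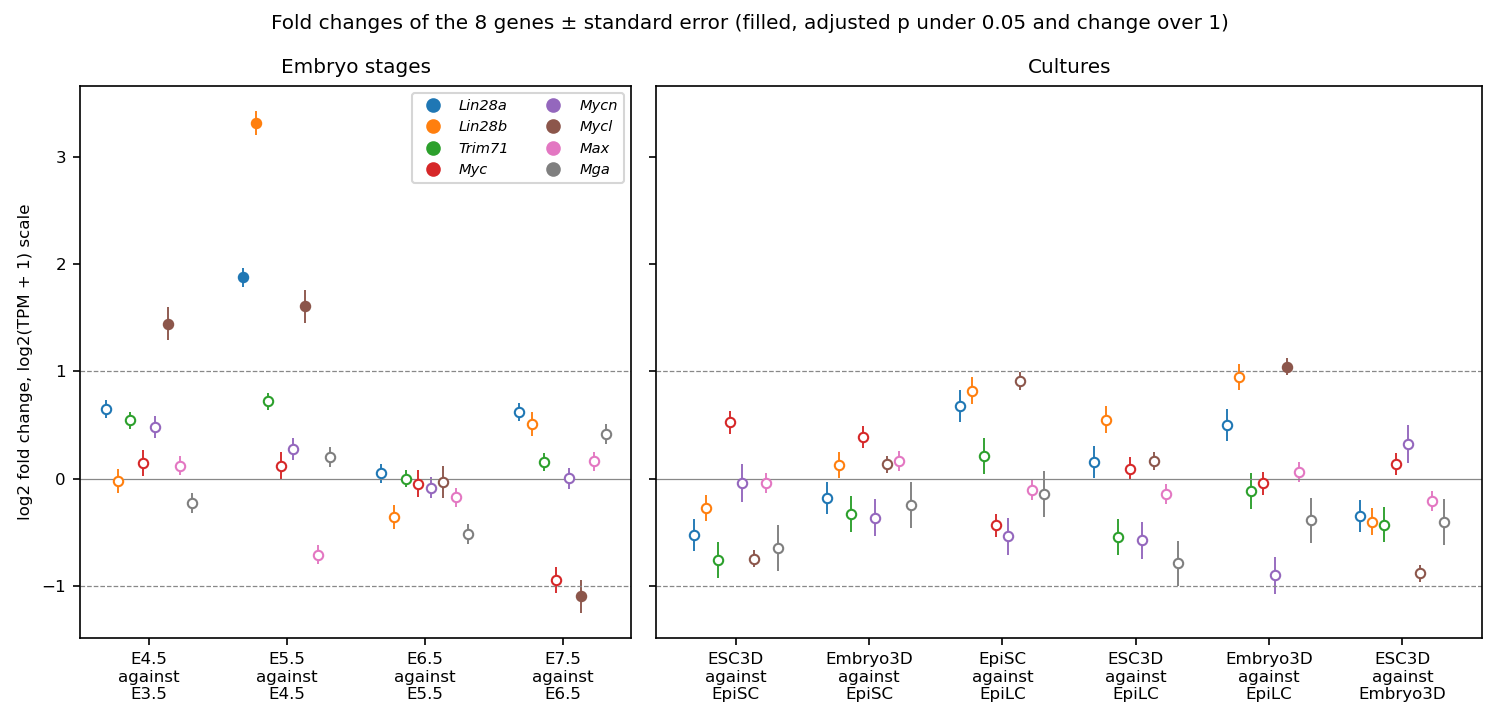
Log2 fold changes of the 8 genes on the log2(TPM + 1) scale in the 4 steps between embryo stages (left) and the 6 pairs of cultures (right), with standard errors. Filled points were called and open points were not, dashed lines mark the fold required. The step from E4.5 to E5.5 holds 3 filled points, Lin28b at 3.31 being the highest of all.

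The summed TPM of Myc, Mycn and Mycl averaged 149 ± 7.88 (SD, n = 3) at E3.5, 196 ± 13.04 at E4.5, 248 ± 9.14 at E5.5, 238 ± 26.3 at E6.5 and 184 ± 1.18 at E7.5. Stage held 92.1% of the variance of its log2 (exact permutation p = 9.99e-05, 0.0003 adjusted over the 6 tests). The share of Mycn in the sum lay between 52.8 and 59.97% in every library from E3.5 to E6.5 and between 69.7 and 73.9% at E7.5. The log2 ratio of Mycn to Myc differed between stages by the same test (adjusted exact permutation p = 0.000411), its mean TPM ratio being 1.26 ± 0.0218 at E3.5 and 3.39 ± 0.399 at E7.5. Mycl made up 1.83% of the sum at E3.5 and 12.4% at E6.5.

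Max and Mga, the shared partner and the Polycomb partner, were not called in any comparison. Max (ENSMUSG00000059436.13, chr12:76937269-76962201, minus strand) read 79.7, 76.2 and 83.0 TPM at E3.5 and 89.2, 84.1 and 86.7 TPM at E4.5. The 9 later embryo libraries lay between 43.3 and 56.1 TPM, with no overlap. The log2 fold change from E4.5 to E5.5 was -0.70 (SE 0.09, limma adjusted p = 1.07e-05), under the fold required. Gm47218, which overlaps Max on the same strand, reached 5.95 TPM. The MYC-family sum over Max was 1.88 ± 0.150 at E3.5, 2.26 ± 0.0851 at E4.5, 4.71 ± 0.496 at E5.5, 5.09 ± 0.405 at E6.5 and 3.52 ± 0.195 at E7.5. Mga (ENSMUSG00000033943.15, chr2:119897228-119969581, plus strand) stayed between 40.4 and 65.8 TPM in all 15 embryo libraries. It was lowest at E6.5 (40.4, 41.7 and 40.4 TPM), where its log2 fold change from E5.5 was -0.51 (SE 0.09, limma adjusted p = 0.00400).

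**Figure D3:**
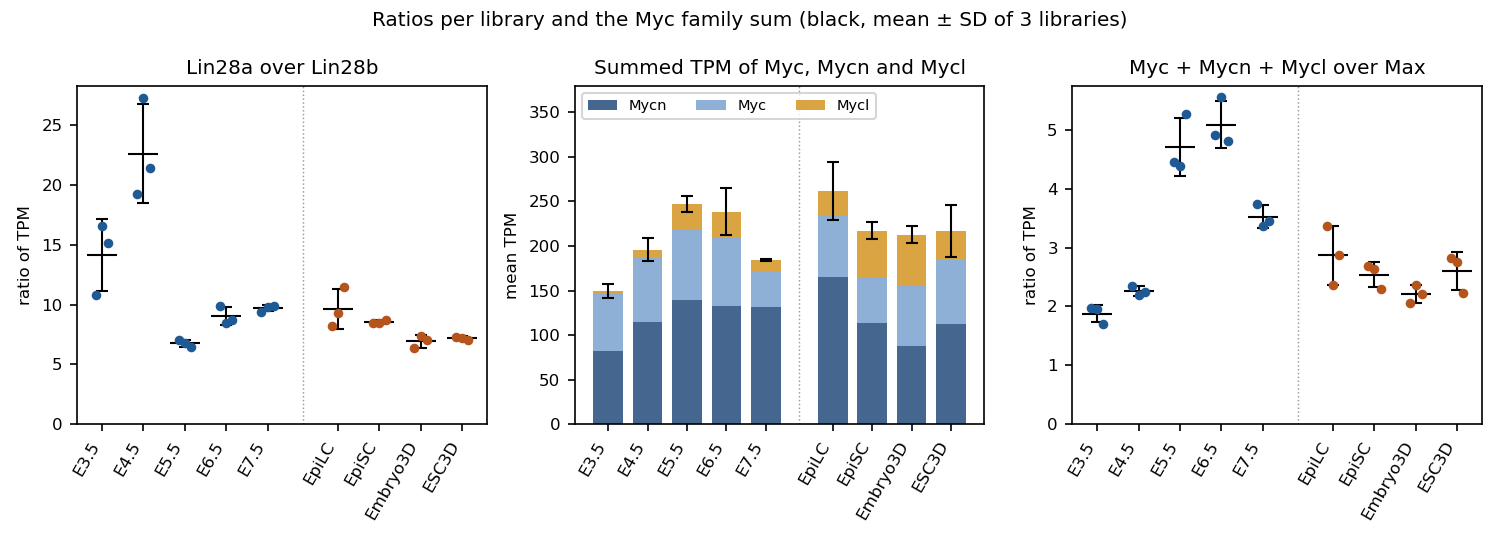
Lin28a over Lin28b per library (left), mean TPM of Mycn, Myc and Mycl stacked (middle) and their sum over Max per library (right), with black lines for the mean ± SD of 3 libraries, which in the middle panel is the SD of the sum. The Lin28 ratio falls from 22.6 at E4.5 to 6.78 at E5.5, and the sum over Max is highest at E6.5, at 5.09.

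In culture every gene of the 8 was present in every library, with the lowest value 23.6 TPM (Lin28b in an EpiLC library). Lin28a read 319, 319 and 316 TPM in ESC3D, 372, 423 and 421 TPM in Embryo3D, 448, 448 and 479 TPM in EpiSC and 291, 218 and 367 TPM in EpiLC. The order was EpiSC, Embryo3D, ESC3D and EpiLC, of which ESC3D and EpiLC overlapped. Lin28b read 43.6, 44.1 and 45.0 TPM in ESC3D, 58.7, 57.7 and 59.6 TPM in Embryo3D, 52.9, 52.9 and 55.0 TPM in EpiSC and 35.4, 23.6 and 32.0 TPM in EpiLC. No neighbours in its order overlapped, and EpiLC was the lowest. Their ratio was 6.92 ± 0.516 in Embryo3D, 7.19 ± 0.151 in ESC3D, 8.55 ± 0.143 in EpiSC and 9.65 ± 1.66 in EpiLC (exact permutation over 15400 groupings, adjusted p = 0.00487).

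Mycl parted the cultures into 2 levels. It read 57.9, 58.8 and 58.0 TPM in Embryo3D and 53.4, 50.3 and 55.3 TPM in EpiSC, against 30.2, 31.1 and 32.3 TPM in ESC3D and 29.1, 26.0 and 28.1 TPM in EpiLC. The 2 cultures grown in the same 3D medium thus stood on different sides, ESC3D against Embryo3D differing by -0.88 log2 (SE 0.08, limma adjusted p = 3.36e-05), under the fold required. These 2 groups also differed in source, ESCs or E5.5 epiblast, and the part of source or genetic background was not tested. Myc went the other way in EpiSC alone, at 51.0, 46.7 and 54.7 TPM, against 60.7 to 77.1 TPM in the 9 libraries of the other 3 groups. Mycn was highest in EpiLC (179, 135 and 182 TPM) and lowest in Embryo3D by mean (83.5, 89.4 and 90.0 TPM), and ESC3D spread from 81.9 to 129 TPM.

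Against EpiLC, Embryo3D had 1 gene of the 8 called higher, Mycl at 1.04 (SE 0.08, limma adjusted p = 7.79e-07), against 10.5% of the 11541 genes tested, and none lower, against 8.28%. Lin28b stood at 0.95 (limma adjusted p = 5.72e-05) and Mycn at -0.90 (limma adjusted p = 0.00105), both just short of the fold. These calls lay near that limit. After the same rescaling Mycl read 0.92 and was not called while Mycn was at -1.03, without EpiLC replicate 1 Lin28b was called at 1.07, and without EpiLC replicate 2 Mycn was at -1.04. EpiSC against EpiLC gave no called gene of the 8 (15.2% of all genes called higher, 5.14% lower), with Mycl at 0.91, Lin28b at 0.82 and Lin28a at 0.68. ESC3D against EpiLC gave none either (5.33% higher, 7.11% lower), its furthest gene being Mga at -0.79 (SE 0.21, limma adjusted p = 0.0106). The 3 comparisons share the EpiLC libraries. Markers of other cell types differed between the cultures as well. The 6 primitive streak and mesoderm genes summed to 39.9 to 47.0 TPM in EpiLC, 39.6 to 91.1 TPM in ESC3D, 108 to 131 TPM in Embryo3D and 200.5 to 207 TPM in EpiSC, with Mesp1 at or near 0 throughout. Lhx1 of that list averaged 0.213 TPM in EpiLC, 43.8 TPM in Embryo3D and 101 TPM in EpiSC, and in ESC3D read 1.64, 1.21 and 22.6 TPM, replicate 3 standing apart. The 7 trophoblast genes, mostly Krt8 and Krt18, summed to 42.8 to 63.5 TPM in EpiLC and 564 to 724 TPM in EpiSC. The part of these markers in the values of the 8 genes was not tested.

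Among the primed cultures no gene of the 8 was called. ESC3D against EpiSC (0.633% of genes higher, 9.25% lower) had Trim71 at -0.75 (SE 0.16, limma adjusted p = 0.00394), Mycl at -0.74 (SE 0.08, limma adjusted p = 5.23e-05) and Myc at 0.53 (SE 0.11, limma adjusted p = 0.00247). Trim71 read 45.4, 44.9 and 60.2 TPM in ESC3D and 83.3, 80.0 and 90.5 TPM in EpiSC, without overlap. Embryo3D against EpiSC (1.07% higher, 7.75% lower) had only Myc with an adjusted p below 0.05 by limma, at 0.39 (SE 0.11, adjusted p = 0.0154). ESC3D against Embryo3D (1.98% in each direction) had Mycl, above, and Lin28b at -0.40 (SE 0.12, limma adjusted p = 0.0414). At an unadjusted p below 0.05, without regard to fold, ESC3D against EpiSC held 5 of the 8 genes by limma (53.9% of all genes), Embryo3D against EpiSC 1 (42.7%) and ESC3D against Embryo3D 4 (37.5%). Against EpiLC the same count was 5 in EpiSC (63.0%), 4 in ESC3D (52.8%) and 4 in Embryo3D (60.7%). ESC3D replicates 1 and 2, Embryo3D 2 and 3, and EpiSC 1 and 2 were closer to each other (median absolute log2 difference 0.0569 to 0.0649) than other culture pairs (0.131 to 0.271), so the spread between these libraries may be partly technical.

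The summed MYC family was 262 ± 32.7 TPM in EpiLC and 213 to 217 TPM by mean in the other 3 cultures, and the test did not separate the cultures (exact permutation p = 0.106, and 0.0323 without EpiLC replicate 2). Mycl made up 27.4 ± 1.07% of the sum in Embryo3D, 24.4 ± 1.55% in EpiSC, 14.6 ± 2.65% in ESC3D and 10.6 ± 0.894% in EpiLC. The Mycn to Myc ratio was 1.31 ± 0.0581 in Embryo3D and 2.4 ± 0.334 in EpiLC (adjusted exact permutation p = 0.00616 over the 4 cultures). Max lay between 80.3 and 99.7 TPM in all 12 libraries. Mga averaged 29.6 ± 7.39 TPM in ESC3D and 51.4 ± 9.60 TPM in EpiLC.

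The machinery around let-7 and its targets was read from fixed lists. Their counts stand beside the shares of all genes called, given above for each comparison, and were not tested against them. Of 14 genes of let-7 maturation and turnover, Ago1, an Argonaute protein, was the 1 called at E5.5 against E4.5 (1.31). At E7.5 the uridylase Tut4, which LIN28 recruits to pre-let-7, and Dis3l2, the exonuclease of the tailed precursor, were called higher at 1.21 and 1.16, and neither was called after rescaling. None of the 14 was called in the other 2 embryo steps or between any cultures, except that 2 were lower in ESC3D than in EpiSC without ESC3D replicate 3 and 1 was higher in EpiSC than in EpiLC without EpiLC replicate 3. The list median from E4.5 to E5.5 was 0.50, beside 0.16 for all genes. The TPM table is no measure of mature let-7, since its let-7 gene rows reached at most 8.98 TPM (Mir98) and these libraries were not built for RNAs of that size.

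Of 13 let-7 target genes, 4 rose from E4.5 to E5.5 and none fell, beside 14.9% and 9.47% of all genes, with a list median of 0.57 beside 0.16 for all genes. They were the chromatin protein gene Hmga1 (2.20, SE 0.10), the cyclin gene Ccnd2 (1.84, SE 0.09), the RNA-binding Igf2bp3 (1.32, SE 0.10) and Arid3b (1.26, SE 0.13). Hmga1 read 30.9, 38.4 and 34.5 TPM at E3.5, 348, 295 and 291 TPM at E4.5 and 1395, 1455 and 1452 TPM at E5.5. From E3.5 to E4.5 Hmga1 (3.13) and Cdk6 (1.52) rose and Hmga2 fell (-2.25). At E7.5 Ccnd2 rose by 3.81 log2, from 4.69 to 5.51 TPM at E6.5 to 82.3 to 85.8 TPM, and Hmga2 rose by 1.62 and Cdk6 by 1.48. The seed match stood in the 3′ UTR of 9 of these 13 genes, Hmga1 and Hmga2 among them, and not in the longest 3′ UTR of Ccnd2 or Cdk6. No gene of the list was called from E5.5 to E6.5. In culture Ccnd2, Cdk6 and Hmga2 were higher in each of EpiSC, ESC3D and Embryo3D against EpiLC, and Tgfbr1 was also higher in Embryo3D. Between the other cultures, Ccnd2 was higher in Embryo3D than in EpiSC (2.08) and ESC3D (ESC3D against Embryo3D, -2.04), and Igf2bp2 was lower in ESC3D (-1.56) and Embryo3D (-1.07) than in EpiSC, the last not after rescaling or without Embryo3D replicate 3.

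Of 5 mRNAs known as TRIM71 targets, 4 were tested. Egr1, an immediate early factor, read 2.10, 2.08 and 2.39 TPM at E3.5, 59.3, 68.1 and 62.7 TPM at E4.5 and 2.59, 2.30 and 2.38 TPM at E5.5. It thus rose by 4.33 and fell by 4.23 log2. By the study's methods only the E4.5 samples went through antibody, serum and trypsin steps, so stage and handling cannot be told apart here. The splicing factor gene Mbnl1 and the cell cycle inhibitor Cdkn1a fell at E4.5 (-1.46 and -2.43) and rose at E7.5 (1.10 and 1.30), Mbnl1 rose at E5.5 (1.61), E2f7 rose at E4.5 (1.37), and Egr1 fell at E7.5 (-1.66). In culture Egr1 was higher in EpiSC (2.16), ESC3D (3.62) and Embryo3D (3.02) than in EpiLC and higher in ESC3D than in EpiSC (1.46), the last not when any 1 library of either group was left out. Cdkn1a was lower in ESC3D than in EpiSC (-1.41) and Embryo3D (-1.12, not after rescaling or without ESC3D replicate 3).

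Around MAX, 1 of 10 other partners was called in the embryo, Mxd4 at E4.5 (-1.04), at a mean of 0.832 TPM, and not after rescaling or without E3.5 replicate 2, E4.5 replicate 1 or E4.5 replicate 3. In culture Mxd4, a MAX-binding antagonist of MYC, was higher in EpiSC (1.66) and Embryo3D (1.43) than in EpiLC, and lower in ESC3D than in EpiSC (-1.55) and Embryo3D (-1.32). Mxd3 was lower in EpiSC (-1.14, not without EpiSC replicate 3) and Embryo3D (-1.12) than in EpiLC, and Usf1 in ESC3D (-1.04, not without ESC3D replicate 3 or EpiLC replicate 2) and Embryo3D (-1.38). Of 13 cofactors and regulators of MYC turnover, Usp28, a deubiquitinase of MYC, rose (1.12) and Zbtb17, the partner through which MYC represses, fell (-1.58) from E3.5 to E4.5. Usp28 was lower in ESC3D (-1.19) and Embryo3D (-1.55) than in EpiLC. None of the 13 was called in the 3 later embryo steps.

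Of the 27 growth genes known as MYC targets, none was called from E5.5 to E6.5 or from E6.5 to E7.5. From E3.5 to E4.5 the lactate dehydrogenase gene Ldha (3.25), the transferrin receptor gene Tfrc (1.23) and the spermidine synthase gene Srm (1.03) rose, and the list median was 0.50 beside -0.10 for all genes. From E4.5 to E5.5 Ldha (1.46) and Cad (1.28), of pyrimidine synthesis, rose, with a median of 0.11 beside 0.16. From E6.5 to E7.5 the list median was -0.10, below the 0.31 of all genes. In EpiSC against EpiLC, Srm (-1.11), Odc1 (-1.06), Nop2 (-1.05) and Rrp9 (-1.01) were lower, for polyamine synthesis and ribosome assembly, and Ldha was higher (1.03, but not after rescaling or without EpiLC replicate 1 or 3). The median was -0.46 beside 0.18. ESC3D and Embryo3D against EpiLC had no called gene of the 27, with medians of -0.14 and -0.26 beside 0.01 and 0.10. The E-box CACGTG, which reads the same on both strands, was searched in RefSeq promoters (300 bases, 250 before the start). Counted per gene, in any of its promoters, it stood in 6 of the 22 of these genes with an entry. Counted per promoter, the E-box stood in 7.15% of all 32851, so these shares are not alike in kind. Among the 7 of the 8 genes with an entry, it stood in 2, Lin28b and Max, shown here with the E-box in capitals (GRCm38.p6, minus strand for both). The Lin28b window, at chr10:45470152-45470451, lies inside the span that the deposited table gives the gene, since its RefSeq start is another one, and the Max window is at chr12:76962199-76962498.
Lin28b: aattgacagagtCACGTGtgctcaggggcc
Max: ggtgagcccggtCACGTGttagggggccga

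Around MGA, 1 of 13 PRC1.6 subunit genes was called in the embryo, L3mbtl2 at E4.5 (1.04). In culture Pcgf6, the subunit that defines PRC1.6, was lower in EpiSC than in EpiLC (-1.01, not without EpiSC replicate 1 or EpiLC replicate 3), Tfdp2 was lower in ESC3D than in EpiLC (-1.003, not without ESC3D replicate 1, ESC3D replicate 2 or EpiLC replicate 3) and Yaf2 higher in Embryo3D than in EpiLC (1.15). Without Embryo3D replicate 1, 3 genes of the list were called higher in the last pair, and without EpiLC replicate 1, 2 were. Germline genes known to lie under this complex were high in EpiLC. Mael read 23.7, 34.5 and 32.4 TPM and Dazl 11.6, 12.3 and 15.1 TPM there, while Mael was listed at 0 in the 9 other culture libraries and Dazl stayed at or below 0.0703 TPM. Tdrkh went against them, at 3.31 to 5.21 TPM in EpiLC and 9.93 to 35.2 TPM elsewhere. Of the 13 genes, 11 were tested in culture, and 7 of these, Mael and Dazl among them, passed the filter only through EpiLC and so had to differ. The other 4 were Sycp3, Stag3 and Zcwpw1, called lower in EpiSC, ESC3D and Embryo3D, and Tdrkh, called higher in all 3. Mga itself was not called in any of these pairs. Between the primed cultures, Tdrkh was higher in Embryo3D than in EpiSC (1.34) and Sycp3 higher in ESC3D than in Embryo3D (1.02, not without ESC3D replicate 1 or 2).

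In the embryo the same germline genes moved apart from each other. From E4.5 to E5.5 Mael, Ddx4 (1.86), Sycp3 (1.72) and Tdrkh (1.14) were called higher, and Stk31 (-3.01) and Stag3 (-2.35) led 3 called lower, of 9 tested. Only 2 were called higher without E5.5 replicate 1 or 2. Mael passed the filter through E5.5 alone, so its call there (2.16) and its fall at E6.5 had to follow and are no support for the counts. From E3.5 to E4.5 Zcwpw1 rose (1.39) and Sycp3 fell (-1.04), the latter not without E3.5 replicate 1 or 3 or E4.5 replicate 1 or 2, while 2 genes were called lower without E4.5 replicate 3. Mael (-1.60) and Stag3 (-1.09) fell at E6.5, 1 of the 2 calls being lost without any of E5.5 replicates 1 to 3 or E6.5 replicate 3. At E7.5 Sycp3 (-1.55) and Zcwpw1 (-1.05) fell.

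**Figure D4:**
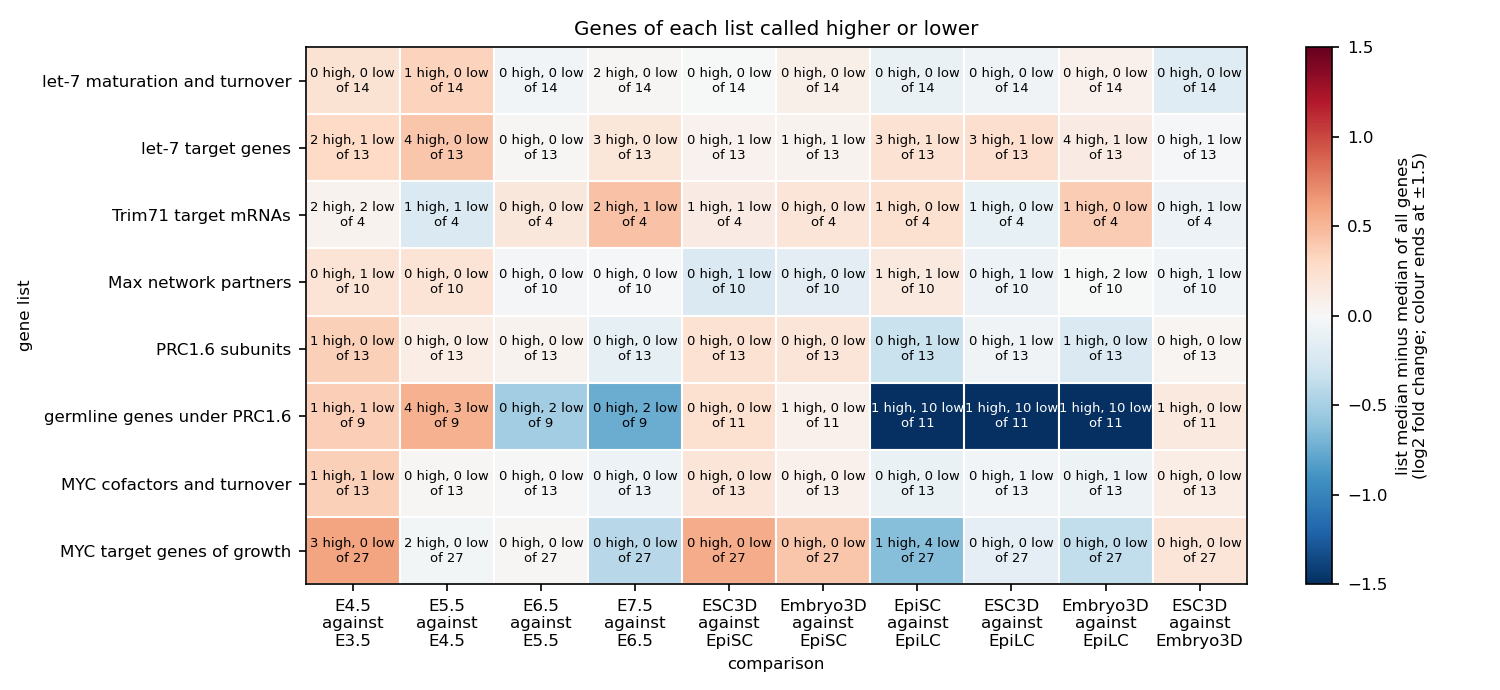
Counts of genes called higher (high) and lower (low) of those tested, for 8 gene lists (rows) in 10 comparisons (columns). Colour is the list's median log2 fold change less that of all genes, and ends at 1.5 in either direction. The darkest cells are the germline genes against EpiLC, where 7 of the 11 passed the filter only through EpiLC and so had to differ.

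The genes most like each member over the 15 embryo libraries, by Pearson's r of log2(TPM + 1), are given as a description, since stage and preparation are shared by all points. For Lin28a they were Sort1 (r = 0.997), Mdk (0.997) and Rhobtb3 (0.996), and over the 12 culture libraries the same genes gave 0.91, -0.35 and 0.74. For Lin28b they were Gtf2i (0.996), Dbn1 (0.996) and Setbp1 (0.995), with 0.96, 0.90 and 0.71 in culture, so all 3 kept a positive r there. For Trim71 they were Tubb5 (0.995), Pxdn (0.993) and Dlg4 (0.993), with -0.56, 0.27 and 0.65. Those of Myc were Utf1 (0.95), Gldc (0.93) and Galnt3 (0.93), with 0.76, 0.09 and 0.06, Utf1 being an epiblast marker. Those of Mycn included Hnrnpab (0.97) and Pip4k2b (0.96), with -0.33 and 0.38. Those of Mycl were Mapk4 (0.98), Bcl11a (0.98) and Unc5b (0.98), with 0.80, -0.13 and 0.49. Those of Max were Zfp977 (0.98), Rbpj (0.98) and Cox5b (0.98), with 0.38, -0.08 and -0.18. Those of Mga included Eif4a2 (0.89) and Zfp407 (0.87), with 0.14 and 0.83.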

How the data were processed

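RNA-seq was analysed from 27 libraries, 15 of embryos and 12 of cultures, of the 35 samples of the series; the single-cell and bisulfite libraries were not used here. The deposited values are TPM per gene, which the authors obtained from StringTie with a GENCODE annotation after read trimming (cutadapt 2.4) and STAR alignment against mm10. The strand setting of the counting is not given in the sources used here. The study's methods state 1 intended sequencing depth for all these libraries, but TPM keeps no counts, so the reads behind a value and its counting error are unknown.

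The table held 54446 genes. Genes that were autosomal, protein-coding and above 2 TPM in at least 3 libraries of a fit were tested (11880 in the embryo, 11541 in culture). log2(TPM + 1) was fitted with limma (3.58.1, R 4.3.3), separately for embryo and culture, all groups of a set sharing 1 estimate of the spread. P-values were adjusted by Benjamini-Hochberg over all genes tested, and a call needed an adjusted p below 0.05 and a log2 fold change beyond 1. Fold changes on this scale understate those of low genes. Sums and ratios were compared with exact permutation tests coded with numpy 2.4.6 and pandas 2.3.3 under Python 3.11.15. The smallest possible p of these permutation tests was 7.14e-07 in the embryo and 6.49e-05 in culture. Figures were drawn with matplotlib (3.10.9). The fits were tested on simulated data.

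The members and lists were chosen with earlier results of these data known. By rule, up to 2 called genes of a list in each direction were named, with the 3 genes most like each member by r; further called genes of a list were named after their values were seen. A few genes that the rule names are not reported here. Labels do not say whether replicates came from separate cultures or litters, so p-values measure the spread between these libraries. Alternatives tried were another pseudocount, no filter, all gene types, median-of-ratios factors, an intensity trend, other sets of libraries in the fit, averaging of close replicates, a replicate block and leaving out each library.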

Additional observations from a re-analysis of the deposited data

How the results depend on the processing

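Of 1168 recomputed fold changes of the 8 genes, 1128 kept their direction and call, 32 changed sign, 6 gained and 2 lost a call. Every sign change belonged to a log2 fold change of at most 0.214 in size with a limma adjusted p of at least 0.123. After rescaling by median-of-ratios factors the changed signs were Lin28b at E4.5 against E3.5 (0.0755), Myc at E5.5 against E4.5 (-0.0279), Myc (0.0391), Mycn (0.0011) and Mycl (0.0526) at E6.5 against E5.5, Trim71 (-0.18), Mycn (-0.33) and Max (-0.17) at E7.5 against E6.5, Mycn (0.18) and Max (0.18) in ESC3D against EpiSC, Trim71 (-0.0093) in EpiSC against EpiLC and Max (-0.0648) in Embryo3D against EpiLC. Leaving out 1 library at a time gave Lin28b -0.0923 to 0.0998 at E4.5 against E3.5. At E6.5 against E5.5 it gave Trim71 -0.0498 to 0.0935, Myc -0.186 to 0.0618, Mycn -0.168 to 0.0148 and Mycl -0.136 to 0.0385, and at E7.5 against E6.5 Mycn -0.091 to 0.092. In ESC3D against EpiSC it gave Mycn -0.15 to 0.17 and Max -0.0829 to 0.0126, in ESC3D against EpiLC Lin28a -0.0373 to 0.34, and in Embryo3D against EpiLC Trim71 -0.268 to 0.0276, Myc -0.0865 to 0.0394 and Max -0.0192 to 0.125. The number of the 8 called ranged from 0 to 2 at E7.5 against E6.5, where it was 2 after rescaling, and from 1 to 2 in Embryo3D against EpiLC. The exact permutation p of the MYC-family sum in culture ranged from 0.0323 to 0.412. The cause of these changes was not tested. Of the list counts, 2242 stayed within 1.5 times and 94 moved further. Rescaling turned 1265 genes higher and 231 lower at E7.5 against E6.5 into 736 and 382, 1756 and 593 in EpiSC against EpiLC into 1336 and 786, and 228 and 229 in ESC3D against Embryo3D into 270 and 149. At E6.5 against E5.5, 85 genes higher and 57 lower became 136 and 126 with a pseudocount of 0.1 and 125 and 191 with all gene types, which at E7.5 against E6.5 gave 2041 and 324. In ESC3D against Embryo3D the pseudocount of 0.1 gave 374 and 345, and averaging close replicates 186 and 99. Deviations of same-numbered libraries correlated at a mean of -0.0166 over 30 pairs in the embryo and -0.0299 over 18 in culture. No pairing by number was seen in these means, which cannot show whether same-numbered libraries shared a litter, day or batch. With the replicate block no call of the 8 genes changed, and the exact permutation p was 0.000833 and 0.172 for the MYC-family sum, 0.000556 and 0.0139 for the Lin28 ratio and 0.00167 and 0.0156 for Mycn over Myc, in embryo and culture. The reads behind each TPM are unknown, which limits what can be said of genes near 0.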
